A study of Rattus norvegicus with 6 samples.

Results

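The genes described here encode enzymes that add methyl groups to histones, remove them, or remove acetyl groups, together with close relatives that share their names. They were taken as every row of the deposited expression table whose gene name begins with Kmt, Kdm, Hdac, Sirt, Setd or Prdm followed by a digit, or is Ezh1 or Ezh2. This gave 68 genes of the 22250 in the table, made up of 18 Kdm, 14 Prdm, 12 Hdac, 8 Kmt, 8 Setd, 6 Sirt and 2 Ezh genes. RNA came from wild-type neonatal rat cardiomyocytes, the beating muscle cells of the newborn heart, which had been separated by collagenase digestion from hearts of 1-day-old Sprague-Dawley rats and cultured with serum. Cells received DMSO, the solvent, or 3Cl-HBA at 40 µM, a compound given to activate the lactate receptor HCAR1 named in the study's title, and the labels give 48 h for both. Each treatment had 3 libraries, which the labels number 1 to 3 without saying whether they came from separate cultures or animals, so p-values speak only for the spread between these libraries, which may be technical. The labels do not state the purity of the cultures, and markers of other cell types are given below.

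Histone tails carry marks that help set how readily a gene is transcribed. Methylation of histone H3 at K4 is found at active promoters and enhancers, methylation at K36 along transcribed genes, and methylation at K9 and K27 in silenced chromatin. Lysine methyltransferases of the SET domain family write these marks, and lysine demethylases erase them by a flavin-dependent (Kdm1) or an iron- and oxoglutarate-dependent (JmjC) reaction. Histone deacetylases remove acetyl groups that accompany transcription. In heart muscle the class IIa deacetylases are known to hold back the MEF2 transcription factors until kinase signals export them from the nucleus, and the sirtuins, which use NAD, link deacylation to metabolism.

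The promoters of these genes are shown because their CpG content was a feature that the selection by name did not use. RefSeq promoter sequences (build GRCr8) were matched by symbol for 54 of the 68 genes, and the 250 bases before the annotated start were examined. Only the first promoter listed for a symbol was used, so any other starts of a gene were not examined. The 4 printed below are all from the minus strand. Those of the most abundant deacetylase and of a PRDM gene named below for its low p come first. Those of a deacetylase with few CpG and of a demethylase without reads in its own row follow. The 4 windows lie at chr5:147165388-147165637 (Hdac1), chr3:99460425-99460674 (Prdm11), chr6:57052572-57052821 (Hdac9) and chr8:19586413-19586662 (Kdm4d), and capitals mark each CpG dinucleotide.
Hdac1: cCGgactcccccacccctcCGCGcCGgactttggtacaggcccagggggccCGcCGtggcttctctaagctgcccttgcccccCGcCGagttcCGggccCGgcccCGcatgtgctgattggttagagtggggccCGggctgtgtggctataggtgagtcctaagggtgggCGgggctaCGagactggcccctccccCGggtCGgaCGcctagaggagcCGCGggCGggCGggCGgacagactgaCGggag
Prdm11: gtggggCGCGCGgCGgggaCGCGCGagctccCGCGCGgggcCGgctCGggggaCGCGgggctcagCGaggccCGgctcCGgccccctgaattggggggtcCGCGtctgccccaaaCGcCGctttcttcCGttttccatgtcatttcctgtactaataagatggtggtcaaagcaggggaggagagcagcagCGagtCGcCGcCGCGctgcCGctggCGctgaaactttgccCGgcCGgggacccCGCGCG
Hdac9: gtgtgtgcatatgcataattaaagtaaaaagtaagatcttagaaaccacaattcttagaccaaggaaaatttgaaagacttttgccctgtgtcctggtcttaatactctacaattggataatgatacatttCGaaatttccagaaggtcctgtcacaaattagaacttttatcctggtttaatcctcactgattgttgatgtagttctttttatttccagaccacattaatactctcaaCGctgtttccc
Kdm4d: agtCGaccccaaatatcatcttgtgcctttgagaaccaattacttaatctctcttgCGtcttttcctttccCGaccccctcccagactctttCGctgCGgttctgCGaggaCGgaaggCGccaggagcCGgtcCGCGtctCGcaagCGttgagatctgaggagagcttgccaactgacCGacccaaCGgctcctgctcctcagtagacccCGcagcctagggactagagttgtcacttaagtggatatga
The Hdac1 window holds 23 CpG, that of Prdm11 34, that of Hdac9 2 and that of Kdm4d 16. Over the 54 matched genes the median was 17.5 CpG, with a range of 2 to 45, against a median of 16 for 10501 genes that passed the filter on low counts and 5 for all 33465 promoters. The set of 33465 was not limited to the first promoter of each symbol. The 6 matched genes with a mean under 1 FPKM had 14 to 18 CpG (median 17), and the 48 with at least 1 FPKM had a median of 18. Hdac9, just above that level at 1.23 FPKM, had 2 CpG, as did Hdac8 at 5.23 FPKM, and Prdm8 and Prdm14, under 1 FPKM, were not matched. The GC box GGGCGG, searched on both strands, was present in 34 of the 54 windows (63%), against 58.4% of the genes that passed the filter, and the letters TATAAA in 1 window (1.85%), that of Prdm4, against 6.59%. Also searched were the CCAAT box ATTGG, in 26 windows (48.1%, against 35.1%), and the ETS core CCGGAAG, in 8 (14.8%, against 14.2%). These are matches of letters in a fixed window and not binding sites.

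The libraries held 13240800 to 17202191 reads assigned to genes, and each 3Cl-HBA library was deeper than each DMSO library. The 68 genes took 0.388% to 0.414% of the reads. Of 13903 genes that passed the filter on low counts, 0 had an adjusted p under 0.05 for 3Cl-HBA against DMSO (edgeR quasi-likelihood test, Benjamini-Hochberg adjustment, 0.0% called), and 711 (5.11%) had an unadjusted p under 0.05. Markers of 6 cell types were summed as CPM, counts scaled to the size of the library. The 7 cardiomyocyte markers summed to 24266 to 25942 CPM in DMSO and 24420 to 24764 after 3Cl-HBA, and the 6 matched fibroblast markers to 15043 to 15941 and 15175 to 15459. The 5 matched endothelial markers summed to 149 to 169.9 and 149 to 163, the 5 of smooth muscle and pericytes to 834 to 889.7 and 835 to 846, the 5 of macrophages to 286 to 313 and 309.7 to 320.2, and the 5 of Schwann cells and neurons to 84.7 to 89 and 84.3 to 101. Each of the matched markers had reads and none was called. The cardiomyocyte markers Myh7 and Ryr2 had an unadjusted p under 0.05 on the lower side, and the 5 macrophage markers were all above 0 (median log2 fold change 0.10); their part in the results below was not tested. In such mixed cultures fewer cells of a type and less RNA per cell cannot be told apart.

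Among the 68 genes, 64 passed the filter and none was called, with a smallest adjusted p of 0.959 (edgeR). The other 4 were Kdm4d and Prdm14, with 0 reads in each library, and Prdm12 and Prdm13, with 0 to 6 reads. Another row, LOC108348070, is also described as lysine-specific demethylase 4D and had 0 to 4 reads per library. A count of 0 allows up to 3 reads, or 0.174 to 0.227 CPM depending on the library, which covers counting error only. The rows that passed therefore exclude the least abundant genes, and counts below are over these 64. Estimates were narrow for most of them. For 58 of them the 95% interval stayed within 1.5-fold either way, and for 62 within 2-fold. The genes beyond 1.5-fold were Hdac6, Hdac11, Hdac1l, Prdm1, Prdm8 and Prdm9, each with few reads. The median absolute log2 fold change was 0.055, against 0.069 for all genes tested.

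**Figure D1:**
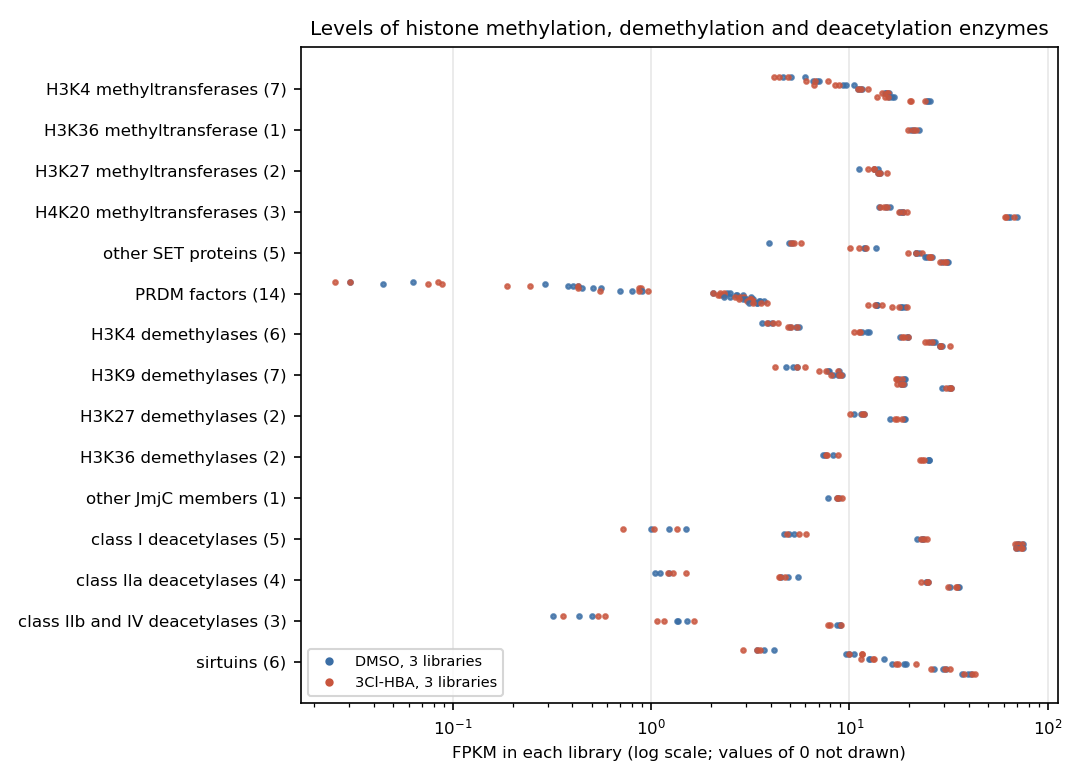
Levels of the 68 genes by role, in FPKM on a log axis; each row of points is a gene, each point a library (blue DMSO, red 3Cl-HBA), the number of genes follows each role, and values of 0 are not drawn. Hdac1, Hdac2 and Kmt5a stand highest, with means of 64.6 to 72 FPKM. By role the class IIb and IV deacetylases (Hdac6, Hdac10 and Hdac11) have the lowest median, 1.35 FPKM. The PRDM factors have the lowest median of the families, 2.38 FPKM.

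Levels between genes were compared as FPKM, reads scaled to gene length and library total. By family the median level over all 6 libraries was 18.2 FPKM for Setd, 15.7 for Sirt, 15.3 for Kmt, 13.6 for Ezh, 11.4 for Kdm, 6.89 for Hdac and 2.38 for Prdm. Within the Hdac family levels ran from 0.456 FPKM for Hdac6 to 72 for Hdac1. For comparison, the median of all 22250 genes was 2.35 FPKM.

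The writers of H3K4 methylation were expressed at moderate levels. Setd7, a monomethyltransferase that also acts on proteins other than histones, was the most abundant of the 7. Setd7 had 24.7, 24.8 and 25.4 FPKM in the DMSO libraries 1 to 3 and 20.5, 20.1 and 24 FPKM in the 3Cl-HBA libraries 1 to 3. Kmt2d, the main enhancer methyltransferase, had a mean of 15.6 FPKM, Setd1a, the catalytic subunit of a promoter-directed complex, 15.3, Kmt2b 11.5, Kmt2a 8.87, Setd1b 6.83 and Kmt2c 4.85 FPKM. Kmt2c was the least abundant Kmt gene. Setd2, which trimethylates H3K36 on transcribed genes, had 21.4 ± 0.95 FPKM in DMSO and 20.7 ± 0.95 after 3Cl-HBA (SD, 3 libraries each).

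Ezh1 and Ezh2, the alternative catalytic subunits of Polycomb complex PRC2, which methylates H3K27, were expressed side by side. Ezh2 had 13.9, 14.3 and 14.1 FPKM in DMSO and 13.9, 14.3 and 15.4 FPKM after 3Cl-HBA. Ezh1 had 13.3, 11.2 and 13.9 FPKM in DMSO and 12.4, 13.3 and 13.3 FPKM after 3Cl-HBA. Ezh2 stood above Ezh1 in each library, by little in some, and for each gene the ranges of the treatments overlapped. The log2 fold changes were 0.026 for Ezh1 (95% interval -0.122 to 0.175) and 0.045 for Ezh2 (-0.109 to 0.199). The sign of Ezh1 turned without DMSO replicate 2 (-0.064) and that of Ezh2 without 3Cl-HBA replicate 3 (-0.0022).

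Among the H4K20 methyltransferases, Kmt5a, which places the first methyl group and is tied to the cell cycle, was the most abundant methyltransferase of the set. It had 63.3, 70 and 64.2 FPKM in DMSO and 61.5, 67.5 and 61 FPKM after 3Cl-HBA, with no separation of the groups. Its relatives Kmt5b and Kmt5c, which add further methyl groups, had means of 15 and 18.5 FPKM. Other SET proteins included Setd5, a regulator without established histone methyltransferase activity, with 31.2, 31.1 and 29.1 FPKM in DMSO and 28.7, 30 and 30.8 FPKM after 3Cl-HBA. Setd3, which methylates a histidine of actin rather than a histone, had 24.9 ± 1.1 and 25.5 ± 0.36 FPKM, and Kmt2e, an MLL relative without clear catalytic activity, had 21.9 ± 0.52 and 21.6 ± 1.8 FPKM.

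The PRDM genes, whose zinc finger proteins carry a SET-like PR domain, were mostly low. Prdm4 was the most abundant, with 18.4, 19.1 and 18.2 FPKM in DMSO and 16.3, 19.6 and 17.9 FPKM after 3Cl-HBA, and Prdm2 followed with a mean of 13.6 FPKM. The other 12 had means of at most 3.44 FPKM. Prdm16, known for roles in brown fat and in the developing heart, had 2.32 ± 0.24 and 2.19 ± 0.13 FPKM. Prdm1, a transcriptional repressor known from lymphocyte and germ cell differentiation, had a mean of 0.345 FPKM, and Prdm14, a pluripotency factor, had no reads.

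Demethylases of each H3 mark were detected. Of the H3K4 demethylases, Kdm1a, the flavin-dependent enzyme of the CoREST complex, had a mean of 29.3 FPKM, Kdm5c 25.6, Kdm5b 19, Kdm5a 11.6, Kdm1b 5.24 and Kdm5d 3.98. Kdm5c and Kdm5d are X- and Y-linked relatives, so the counting could have split reads between them. Of the H3K9 demethylases, Kdm4a was the most abundant Kdm gene, with 32.4, 29.3 and 31.9 FPKM in DMSO and 32, 30.7 and 32.5 FPKM after 3Cl-HBA. Kdm3a and Kdm3b had 18.2 and 18.1 FPKM. The H3K27 demethylases Kdm6b and Kdm6a had 17.8 and 11.2 FPKM, and the H3K36 demethylase Kdm2a had 24.2 against 7.88 for its relative Kdm2b.

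Among deacetylases the class I enzymes Hdac1 and Hdac2, the catalytic pair of the NuRD, Sin3 and CoREST complexes, led. Hdac1 had 68.9, 75.2 and 70.6 FPKM in DMSO and 74.5, 69.1 and 73.5 FPKM after 3Cl-HBA. Hdac2 had 72.2 ± 2.5 and 71 ± 3.1 FPKM, and the ranges of both genes overlapped. Hdac3, the enzyme of the NCoR complexes, had a mean of 23.3 FPKM and Hdac8 5.23. Hdac1l is named as a copy of Hdac1 in the table, and its 18 to 31 reads per library cannot be separated with certainty from those of Hdac1. Of the class IIa enzymes, Hdac5 (34 FPKM) and Hdac7 (24.4 FPKM) were well above Hdac4 (4.75 FPKM) and Hdac9 (1.23 FPKM).

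Hdac6, the cytoplasmic tubulin deacetylase, was the least abundant Hdac gene, with read counts of 24, 29 and 17 under DMSO and of 21, 37 and 37 under 3Cl-HBA. A second row of the table, LOC108348065, is also described there as histone deacetylase 6, lies on the same chromosome, and had 7 to 22 reads per library, so reads of this gene may be split between rows. Of the sirtuins, Sirt2, a mainly cytoplasmic deacetylase, was the most abundant, with 37.1, 39.6 and 40.9 FPKM in DMSO and 41.7, 43.2 and 37.9 FPKM after 3Cl-HBA. The mitochondrial sirtuins Sirt5, Sirt3 and Sirt4 had 29.2, 13 and 3.53 FPKM, and the nuclear Sirt6 and Sirt7 had 18.5 and 10.5 FPKM. Sirt4 was the least abundant, with 3.73, 3.42 and 4.15 FPKM in DMSO and 3.44, 3.53 and 2.89 FPKM after 3Cl-HBA. The row described as sirtuin 1 carries the clone name AABR07044925.1 and thus fell outside the selection. Its level was 12.6, 11.9 and 9.56 FPKM in DMSO and 11.5, 11.5 and 11 FPKM after 3Cl-HBA.

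**Figure D2:**
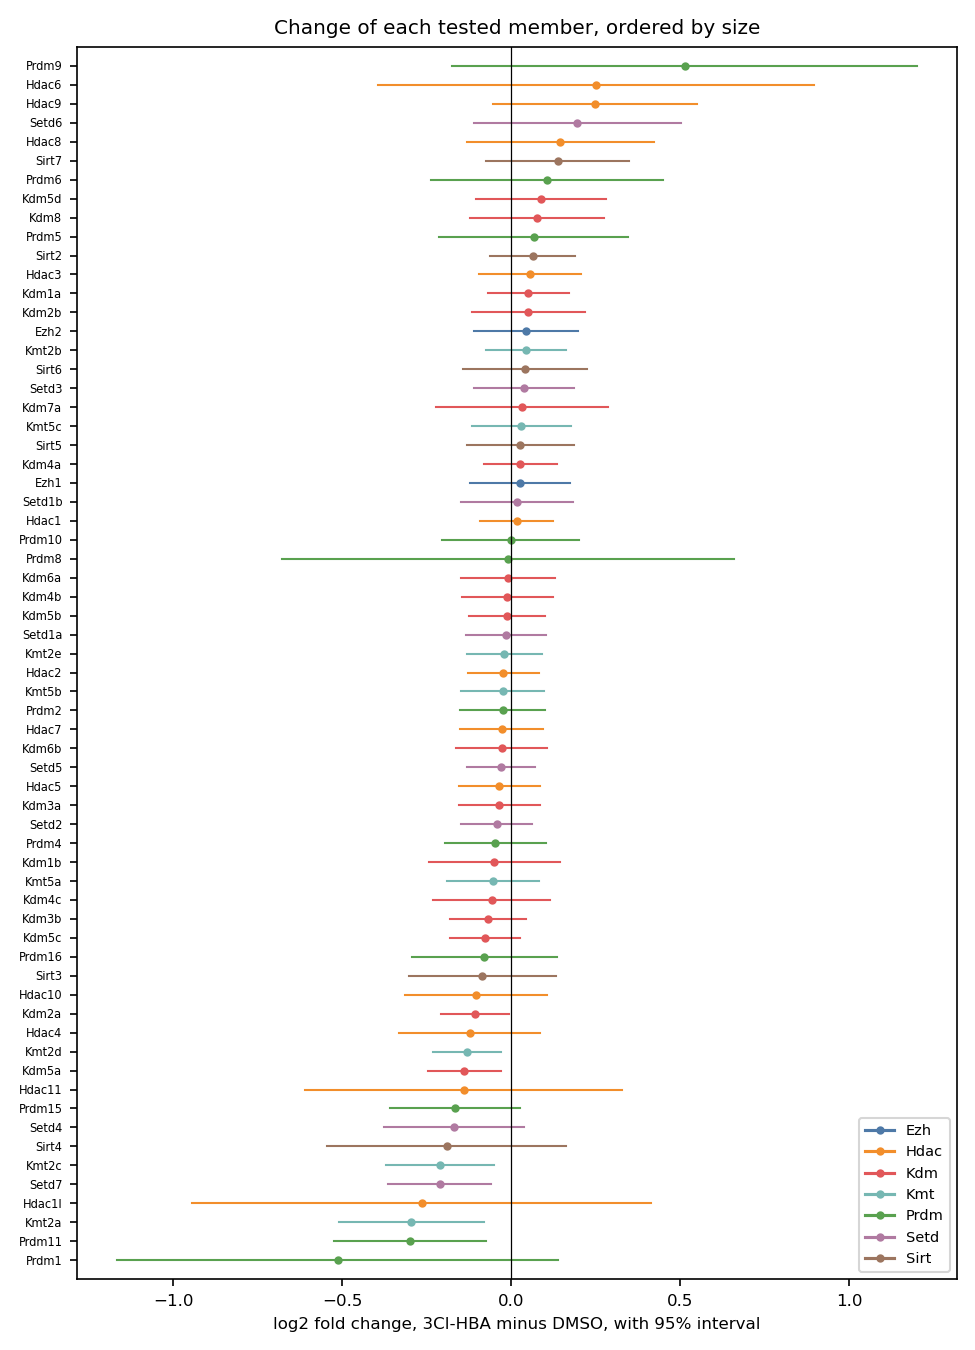
Log2 fold change of each of the 64 tested genes, 3Cl-HBA minus DMSO, with its 95% interval, ordered by size and coloured by family. The 7 intervals that leave out 0 are all on the lower side.

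The treatment comparison asked whether 3Cl-HBA altered these transcripts, and the differences were small and more often downward. Of the 64 genes, 39 (60.9%) had a log2 fold change below 0, against 50.2% of all genes tested, and the median was -0.021 against -0.00051. An unadjusted p under 0.05 on the lower side was found for 7 genes (10.9%), against 2.59% of all genes, and on the higher side for 0, against 2.52%. The 3 treated libraries lay below the 3 DMSO libraries for 7 genes (10.9%, against 5.22% of all genes) and above them for 1, Setd6 (1.56%, against 5.24%). The 7 were Setd7, Prdm11, Kmt2d, Kmt2a, Kdm5a, Kdm2a and Prdm15. The 6 other than Setd7 are over 6000 bases long. At that length they are 28.6% of the 21 tested genes of the set, against 12.2% of all 966 genes tested. None of these differences passed the test over all genes. The genes share the same 6 libraries, so these shares describe the libraries at hand.

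Of the 7 genes with an unadjusted p under 0.05, 4 write H3K4 methylation (Setd7, Kmt2a, Kmt2c and Kmt2d), and Kdm5a removes it. All of the 7 but Setd7 are over 6000 bases long. At that length 8.49% of all genes tested were lower with such a p, against 2.59% at any length. Setd7 (ENSRNOG00000013045, chromosome 2, 140576188 to 140618405, minus strand; genome assembly not given in the sources used here) stood at 48.7, 49 and 50.3 CPM in DMSO and 40.3, 39.9 and 47.6 CPM after 3Cl-HBA. The third treated library came close to the DMSO libraries without reaching them. The difference was -0.21 on the log2 scale, with an SE of 0.076, a 95% interval from -0.36 to -0.059 and an edgeR adjusted p of 0.959, and leaving out single libraries gave -0.30 to -0.17.

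Kmt2a encodes MLL1, the methyltransferase that maintains Hox gene expression and is rearranged in leukaemia (ENSRNOG00000015133, chromosome 8, 49114990 to 49158971, minus strand). It had 121, 111 and 107 CPM in DMSO and 75.7, 97.5 and 102.5 CPM after 3Cl-HBA. The groups did not overlap, but 3Cl-HBA replicate 1 lay far below the other treated libraries and DMSO replicate 1 was the highest. Its difference was -0.30 on the log2 scale, with an SE of 0.0975, a 95% interval from -0.51 to -0.080 and an edgeR adjusted p of 0.959. In the fit without a filter on low counts, which called 2 of 18107 genes (0.011%), Kmt2a was one of them, with a log2 fold change of -0.29, SE 0.059 and edgeR adjusted p 0.0082. The adjusted p ranged from 0.0082 to 1 over the alternatives. Without 3Cl-HBA replicate 1 the log2 fold change was -0.18, and without replicate 1 of both treatments -0.12.

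Kmt2c and Kmt2d encode MLL3 and MLL4, the sister enzymes that place H3K4 monomethylation at enhancers. Kmt2d (18552 bases, the longest gene of the set) had 311, 293 and 304 CPM in DMSO and 256, 283 and 290.1 CPM after 3Cl-HBA, with 3Cl-HBA replicate 1 lowest and no overlap. Its log2 difference was -0.13, with an SE of 0.050 and a 95% interval from -0.23 to -0.031. Kmt2c had 63.3, 53.7 and 49.7 CPM in DMSO and 44.3, 47.4 and 52.4 CPM after 3Cl-HBA, with overlapping groups, and a log2 fold change of -0.21 (SE 0.079). Without 3Cl-HBA replicate 1 Kmt2d was at -0.079, and without DMSO replicate 1 Kmt2c was at -0.11. Without replicate 1 of both treatments these values became -0.059 for Kmt2d and -0.054 for Kmt2c. The other writers of H3K4 methylation had log2 fold changes of 0.045 for Kmt2b, -0.015 for Setd1a and 0.017 for Setd1b, and the median over all 7 was -0.13, with 5 below 0. With each library's trend of level on gene length removed, as described below, the median of these 7 was -0.043, with 4 below 0.

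The remaining low-p genes were Kdm5a, Kdm2a and Prdm11. Kdm5a, an H3K4 demethylase that binds the retinoblastoma protein, had 138, 141 and 131 CPM in DMSO and 119, 126 and 128 CPM after 3Cl-HBA, a log2 difference of -0.14 (SE 0.054). Kdm2a, a CpG-binding H3K36 demethylase, had 171, 168 and 171 CPM in DMSO and 157, 162 and 155 CPM after 3Cl-HBA, a log2 difference of -0.11 (SE 0.051). In both genes each treated library lay below each DMSO library. Without replicate 1 of both treatments the values were -0.10 for Kdm5a and -0.098 for Kdm2a. Prdm15, also without overlap, had 24.3, 23 and 23.3 CPM in DMSO and 21.4, 20.1 and 21.5 CPM after 3Cl-HBA, with a log2 difference of -0.17 (SE 0.095) whose 95% interval held 0.

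Prdm11, a little studied PRDM gene (ENSRNOG00000008674, chromosome 3, 81867438 to 81911197, minus strand), was low in each treated library. It had 16.6, 17.7 and 16.5 CPM in DMSO and 13.2, 14.3 and 13.7 CPM after 3Cl-HBA. Its difference on the log2 scale was -0.30, with an SE of 0.11, a 95% interval from -0.52 to -0.074 and an edgeR adjusted p of 0.959, and it ranged from -0.33 to -0.27 over the alternatives. A short unnamed gene of 450 bases lies on the same strand within its locus, with 8 to 32 reads per library, so some reads could belong to either.

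**Figure D3:**
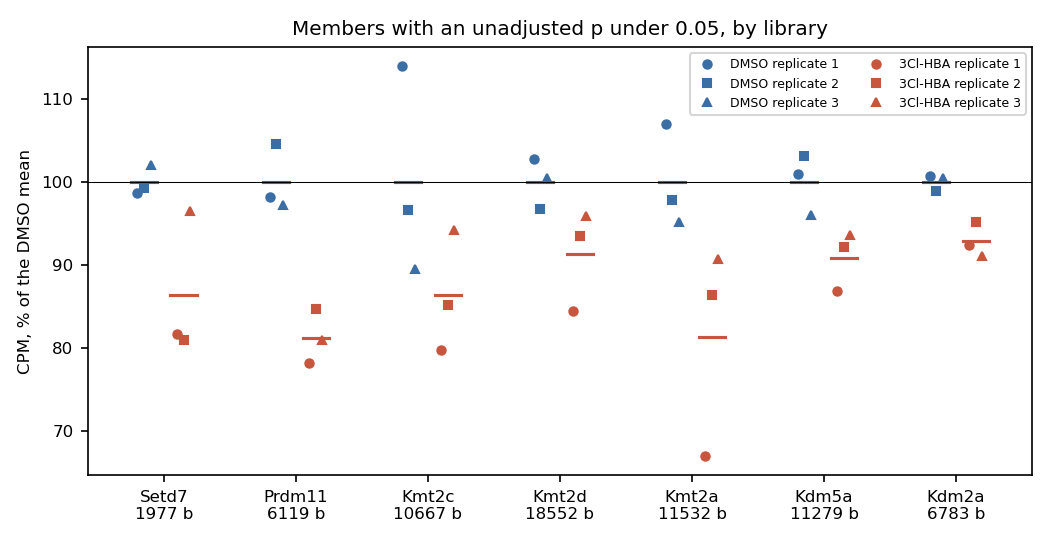
CPM of the 7 genes with an unadjusted p under 0.05, as a percentage of each gene's DMSO mean; symbols mark replicate numbers, colours the treatment, bars the means, and the gene length in bases (b) stands under each name. For Kmt2a, 3Cl-HBA replicate 1 lies far below the other treated libraries, while for Prdm11 the 3 treated libraries lie together.

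On the higher side the 5 genes with the lowest p were Hdac9, Prdm9, Sirt7, Setd6 and Hdac8, and none had an unadjusted p under 0.05. Hdac9, a class IIa deacetylase that restrains MEF2, had 7.8, 7.44 and 8.72 CPM in DMSO and 9.14, 10.6 and 8.6 CPM after 3Cl-HBA, overlapping groups with a log2 fold change of 0.25 (95% interval -0.052 to 0.55). Setd6, a methyltransferase of the NF-kappaB subunit RelA, had 8.59, 6.61 and 8.42 CPM in DMSO and 9.55, 8.89 and 8.6 CPM after 3Cl-HBA. Its groups touched without overlapping, and the log2 fold change was 0.20 (-0.11 to 0.50). Sirt7 had 16.8, 17.2 and 18.4 CPM in DMSO and 20.1, 17.3 and 20.3 CPM after 3Cl-HBA (0.14, -0.075 to 0.35). Hdac8 had 10.3, 9.16 and 9.78 CPM in DMSO and 11.8, 9.59 and 11 CPM after 3Cl-HBA (0.15, -0.13 to 0.42). Prdm9, the recombination hotspot factor of meiosis, had read counts of 17, 20 and 20 under DMSO and of 35, 20 and 37 under 3Cl-HBA (0.51, -0.17 to 1.20). In 3 of these 5, Prdm9, Sirt7 and Hdac8, 3Cl-HBA replicate 2 lay among or below the DMSO libraries.

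The most abundant genes were measured tightly and moved little. Log2 fold changes were 0.016 for Hdac1 (95% interval -0.091 to 0.12), -0.023 for Hdac2 (-0.13 to 0.082), -0.053 for Kmt5a (-0.19 to 0.083), 0.027 for Kdm4a (-0.080 to 0.13), -0.030 for Setd5 (-0.13 to 0.071) and 0.064 for Sirt2 (-0.062 to 0.19). Each of these intervals held 0, and any change inside them remained compatible with these libraries. The class IIa deacetylases Hdac4, Hdac5 and Hdac7 had -0.12, -0.035 and -0.027. By family the median log2 fold change was -0.039 for Kmt, -0.025 for Prdm, -0.025 for Hdac, -0.022 for Setd, -0.013 for Kdm, 0.035 for Sirt and 0.036 for Ezh. With the length trend removed the medians of Setd and Kdm lay above 0, at 0.0095 and 0.013, and without DMSO replicate 2 those of Ezh and Sirt lay below 0, at -0.0058 and -0.032.

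Log2 fold changes differed with gene length. Many chromatin enzymes are encoded by long transcripts, and the median length of the 68 genes in the table was 3920 bases against 1865 for all genes. Of the 21 tested genes over 6000 bases, 19 (90.5%) had a log2 fold change below 0 (median -0.042), and 6 (28.6%) had a lower level with an unadjusted p under 0.05. The 966 tested genes of that length in the whole table leaned the same way, with 70.8% below 0 (median -0.037) and 8.49% lower with an unadjusted p under 0.05. The 27 tested genes of the set under 3000 bases had a median of 0.028, with 12 below 0, against a median of 0.011 for all 8830 genes that short. The exceptions among the 21 long genes were Kmt2b and Hdac9. Spearman's rho between length and log2 fold change was -0.25 over the 64 genes and -0.12 over all 13903, a description across genes that share the same 6 libraries.

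**Figure D4:**
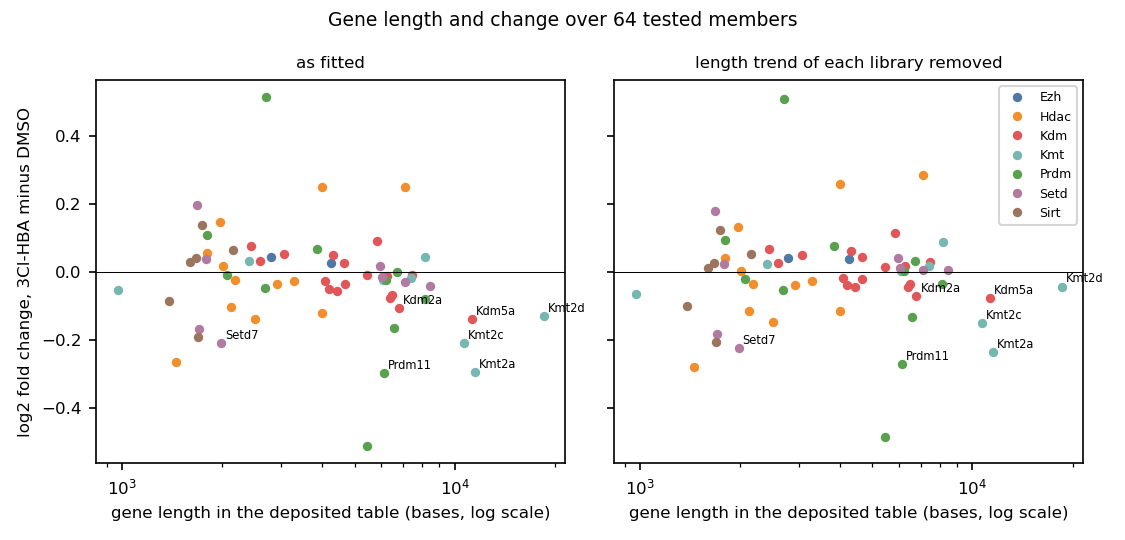
Gene length (bases, log axis) against log2 fold change, 3Cl-HBA minus DMSO, for the 64 tested genes, coloured by family, as fitted (left) and after removal of the length trend of each library (right). On the left 19 of the 21 genes over 6000 bases lie below 0, and on the right 10 of 21.

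Libraries differed in their length trend. Over all genes tested, Spearman's rho between length and a library's log2 deviation from the gene's mean was 0.188 in DMSO replicate 1 and -0.248 in 3Cl-HBA replicate 1, and between -0.054 and 0.069 in the other 4. Over the 64 genes, in replicate order, it was 0.324, 0.335 and -0.174 for DMSO and -0.485, 0.072 and 0.061 for 3Cl-HBA, so among these genes DMSO replicates 1 and 2 showed it alike. Without 3Cl-HBA replicate 1 the rho between length and log2 fold change over the 64 genes was -0.025, without DMSO replicate 1 -0.17 and without DMSO replicate 2 -0.18. Of the 21 long genes, 13 had their lowest level in 3Cl-HBA replicate 1, while 9 had their highest in DMSO replicate 1 and 7 in DMSO replicate 2. The median deviation of these 21 was 0.063, 0.041 and 0.0088 in DMSO and -0.084, -0.019 and 0.034 after 3Cl-HBA, so 3Cl-HBA replicate 3 lay above DMSO replicate 3.

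**Figure D5:**
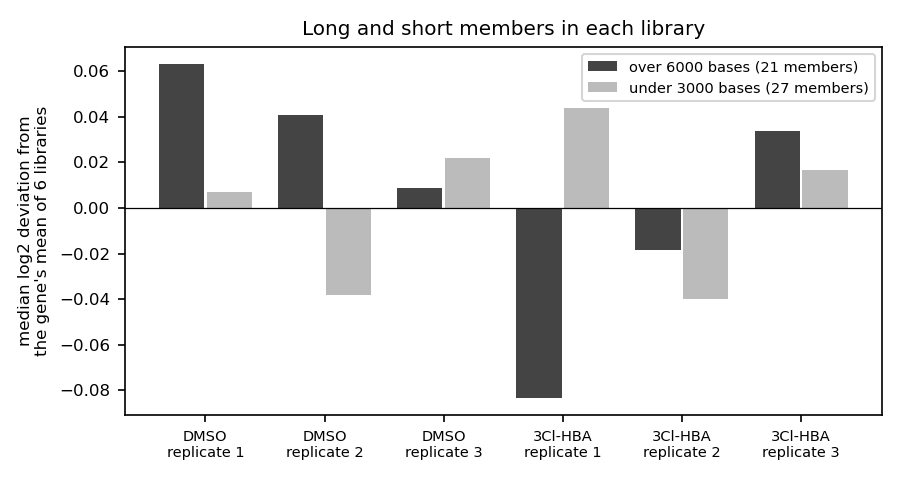
Median log2 deviation from each gene's mean of 6 libraries, by library, for the 21 tested genes over 6000 bases (dark bars) and the 27 under 3000 bases (light bars). Long genes were lowest in 3Cl-HBA replicate 1 (-0.084), where short genes were highest (0.044).

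After removal of each library's length trend, log2 fold changes of the set lay about evenly around 0. The median log2 fold change of the 64 genes became 0.0035, with 29 below 0, and of the 21 long genes 10 were below 0. Of all 966 tested genes over 6000 bases, 473 were then below 0. The trend was fitted over all genes tested, so its removal also takes out any treatment difference that varies with length. An even split of long genes was therefore largely set by the fit. Genes with an unadjusted p under 0.05 on the lower side then numbered 4 in place of 7 (6.25%, against 2.65% of all genes), and these were Setd7, Prdm11, Kmt2a and Kmt2c. Their log2 fold changes were then -0.22, -0.27, -0.24 and -0.15, while Kmt2d, Kdm5a and Kdm2a had -0.043, -0.077 and -0.072. The edgeR adjusted p of Kmt2a was 0.67 in this fit, and 0.11 with the trend removed and no filter on low counts. In that last fit the same 4 genes had an unadjusted p under 0.05, against 5.14% of all genes fitted, 2.64% on the lower side. Without replicate 1 of both treatments the median of the set was 0.0062 and rho 0.038. Setd7 and Prdm11 had -0.18 and -0.29 there, and the 3 genes with an unadjusted p under 0.05 were Prdm1, Prdm11 and Setd4. These are 4.69% of the 64, close to the 4.53% of all genes in that fit.

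Partners of these enzymes were taken from lists of other pathway genes, and none of their tested genes was called. Over 16 matched lysine methyltransferases outside the selected names, 12 were below 0, against 50.2% of all genes, and 2 had an unadjusted p under 0.05, against 5.11%. Their median log2 fold change was -0.030, or -0.0094 with 10 below 0 when the length trend was removed. The muscle-specific Smyd1 was the most abundant there, with 71.7 FPKM in DMSO and 68.7 after 3Cl-HBA, and Smyd4 had 10.7 ± 0.6 and 7.87 ± 1.1 CPM (log2 fold change -0.43, SE 0.15, edgeR adjusted p 0.959). Nsd1, of 9233 bases, was the other gene with an edgeR unadjusted p under 0.05. Its log2 fold change was -0.16, or -0.12 with the length trend removed. Smyd5 had the lowest p of the genes above 0 in that list, with a log2 fold change of 0.13. Among 10 PRC2 partners 6 were below 0 (median -0.019). Rbbp7, a histone-binding subunit, was the most abundant at 162 and 167 FPKM, and Jarid2, which guides the complex, had 32.7 ± 1.2 and 29.2 ± 1.5 CPM (-0.16, SE 0.084). Rbbp4, a close relative of Rbbp7, had 0.060. The 13 partners of the H3K4 methyltransferase (COMPASS) complexes had a median of -0.00037, with Cxxc1, a CpG-binding subunit, at 0.093 Wdr5, the core scaffold, at -0.15 and Wdr82, the most abundant, at 41.8 and 41.3 FPKM.

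Corepressors that carry deacetylases had values near 0. The 22 matched genes had 12 above and 10 below 0 (median 0.0014) and 0 with an unadjusted p under 0.05, and with the length trend removed 5 were below 0 (median 0.019). Chd4, the NuRD remodeller, had 74.7 and 73 FPKM, and Gps2, an NCoR subunit, had 24.2 ± 1.2 and 27.2 ± 0.79 CPM (log2 fold change 0.17, SE 0.090). Gatad2a, another NuRD subunit, had -0.060. In the list of MEF2 factors and the kinases that act on class IIa deacetylases, 8 of 13 tested genes were below 0 (median -0.022). Mef2a had 193 ± 26 and 190.4 ± 13 CPM, and the CaM kinase genes Camk2a and Camk2g had unadjusted p under 0.05 in opposite directions, with 0.38 (SE 0.19) and -0.25 (SE 0.11).

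Of 12 matched lysine acetyltransferases, which oppose the deacetylases, 6 were below 0. An edgeR unadjusted p under 0.05 was found for 2, both on the lower side, against 2.59% of all genes on that side. Ep300, the coactivator p300, had 39.7 ± 3 and 34 ± 3.7 CPM (log2 fold change -0.22, SE 0.084, edgeR adjusted p 0.959), and Hat1, the most abundant by FPKM, had 55.9 ± 2.9 and 60.7 ± 1.8 CPM (0.12). Other JmjC proteins had 8 of 10 below 0 (median -0.064, lowest -0.32). On the lower side 1 had an edgeR unadjusted p under 0.05, against 2.59% of all genes. For 3 of the 10 each treated library lay below each DMSO library, against 5.22% of all genes. The long Jmjd1c was at -0.12, or -0.076 with the length trend removed, Riox1 at 0.18 and the most abundant, Jmjd6, at 20.3 and 20.1 FPKM. Arginine methyltransferases had 5 of 7 tested above 0 (median 0.035), led in level by Prmt1 at 74.7 and 79.3 FPKM, with a log2 fold change of 0.088, while Carm1 had -0.036. The 13 genes that supply NAD or S-adenosylmethionine, the cofactors of sirtuins and methyltransferases, had a median of 0.0075, with Nnmt at 0.24 and Nmnat3 at -0.17. Mat2a, the S-adenosylmethionine synthetase gene, had 346 ± 5.3 and 356 ± 9.1 CPM.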

How the data were processed

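The authors deposited, per the file headers, whole-number read counts per gene and library, not normalised, together with FPKM and a gene length in bases. The deposited FPKM equal the count divided by length and library total within a relative gap of 8.2e-08. A KAPA RiboErase kit and an Illumina HiSeq instrument were used, and DESeq2 was the authors' tool, per the labels' protocols. Aligner, counter, strand setting and genome assembly: not given in the sources used here. The labels' treatment protocol tied columns to treatments.

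Counts were fitted over all genes with edgeR 4.0.16 under R 4.3.3 (filterByExpr at a minimum count of 10, TMM scaling, glmQLFit with robust fitting, glmQLFTest, treatment only), with Benjamini-Hochberg adjustment over all 13903 genes kept and a threshold of 0.05. A log2 fold change is the 3Cl-HBA level minus the DMSO level, its SE is the absolute log2 fold change over the square root of F, and printed CPM use TMM-scaled totals. The length trend was a lowess curve of log2 CPM deviation (prior count 2) on log2 length per library, entered as offsets. Alternatives used limma-voom (limma 3.58.1) and DESeq2 1.42.0, other scalings and filters, a replicate block, and single libraries left out. The procedure was tried on simulated counts with changes larger than any estimate in the set and without a length trend. That trial does not show how it treats small changes or a length trend. Genes named with values were the 5 with the lowest p per direction, the most and least abundant of each family, Kmt2a, and per list of partners the lowest p per direction and the most abundant; other values were chosen after they were seen. The members and lists were chosen with earlier results of these data known. List symbols were matched by name or, through the RefSeq table of assembly GRCr8, by Ensembl identifier, and where a symbol had several rows the row with most reads was used.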

Additional observations from a re-analysis of the deposited data

How the results depend on the processing

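Over all genes the count of calls was 0 as reported, 1 with limma-voom (Vwa5a), 2 without a filter on low counts (Kmt2a and Myh9l1), 1 without replicate 1 of both treatments (Cend1) and 0 to 8 when single libraries were left out: 8 without DMSO replicate 3, 1 without DMSO replicate 2, 2 without 3Cl-HBA replicate 2 and 3 without 3Cl-HBA replicate 3. DESeq2 gave 0. Of the 68 genes described, 1 was called without the filter, Kmt2a (log2 fold change -0.29), and 0 under the other alternatives run. Genes of the set with an unadjusted p under 0.05 numbered 7 as reported, 4 with the length trend removed (also 4 with no filter on low counts added), 3 without replicate 1 of both treatments, and 4 to 7 when single libraries were left out, with 4 without DMSO replicate 1. A replicate block gave 0 calls over all genes, 6 genes of the set with an unadjusted p under 0.05, and a median log2 fold change of -0.023; it changed no call. Same-numbered libraries did not deviate together (correlations of -0.069, -0.044 and -0.045), and pairs with different numbers had -0.0147 to 0.0595. Such values cannot show whether same-numbered libraries shared a culture, and the labels do not say. Removing both replicate 1 libraries and combining the length trend with no filter were chosen after seeing the data.

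When single libraries were left out, rho between length and log2 fold change was -0.36 to -0.025, lowest in size without 3Cl-HBA replicate 1, and the median of the set was -0.041 to -0.0025. The same ranges were -0.088 to 0.019 for the Prdm median, -0.048 to 0.068 for Sirt and -0.047 to 0.0087 for Setd, which was 0.024 without replicate 1 of both treatments. The Kdm median ranged from -0.045 to 0.011 and the Ezh median from -0.0058 to 0.070. Without replicate 1 of both treatments the medians of Prdm, Kdm and Sirt also turned, to 0.0092, 0.0053 and -0.016. Over the Prdm genes that passed the filter, the median level was 2.73 FPKM against 2.38 over all 14. Over all alternatives, directions were followed only for the genes named by rule, and those that turned were near 0. Other genes turned too. Without replicate 1 of both treatments, for example, Kdm2b went from 0.051 to -0.041 and Kdm6a from -0.0090 to 0.094. Leaving out single libraries gave -0.0022 to 0.079 for Ezh2, -0.064 to 0.087 for Ezh1, -0.012 to 0.051 for Hdac1, -0.019 to 0.053 for Kdm4a, -0.12 to 0.019 for Prdm4 and -0.061 to 0.0014 for Setd5. Without replicate 1 of both treatments Ezh1 was at 0.091, Hdac1 at -0.029, Prdm4 at 0.0092 and Setd5 at 0.018, and with the length trend removed Setd5 was at 0.0067 (0.0066 without the filter). The cause was not tested. Depth limits Hdac6, Hdac11, Hdac1l, Prdm1, Prdm8 and Prdm9 most.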
